A study of Mus musculus with 7 samples.

Results

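The interleukin 6 (IL-6) family and its STAT3 axis were followed in cancer-associated fibroblasts (CAFs) by 10 transcripts, chosen by gene symbol: the ligands Il6, Lif, Il11 and Clcf1, the receptor chains Il6ra, Il6st, Lifr and Osmr, the transcription factor Stat3 and the inhibitor Socs3. All 10 were present among the 12771 genes of the count table. The CAFs came from orthotopic pancreatic tumors of C57BL/6 males, 8 weeks old at injection, and were collected 2 to 3 weeks later. Tumors grew from the mouse pancreatic cancer line KPC, which carried a lentiviral non-targeting hairpin in the shControl group (3 libraries, 1 per mouse) or a lentiviral hairpin against Brca2 in the shBrca2 group (4 libraries, 1 per mouse). The mice themselves carried no hairpin and no engineered allele is named for them, so the groups differ by what the injected line carried and not by a change made in the fibroblasts. One line was used throughout. The sort kept podoplanin-positive cells without CD45, CD31 or EpCAM, and MARS-seq, which counts the 3' ends of poly(A) transcripts, gave between 1898679 and 5990579 counts per library. Values are listed below for shControl replicates 1, 2 and 4 and for shBrca2 replicates 1 to 4, in that order.

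IL-6 family cytokines are grouped by their use of gp130, the signaling chain encoded by Il6st. IL-6 and IL-11 first bind a receptor chain of their own, whereas LIF joins gp130 to the LIF receptor, oncostatin M joins it to the oncostatin M receptor, and CLCF1 uses the CNTF receptor together with gp130 and the LIF receptor. Janus kinases held by these chains phosphorylate STAT3, which enters the nucleus and induces Socs3, whose product binds gp130 and the kinases and shuts the signal down. In pancreatic tumors IL-6 is the best known marker of inflammatory CAFs (iCAFs), a fibroblast state that is maintained by IL-1, NF-κB, LIF and STAT3.

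A promoter was available in the RefSeq tables for 9 of the 10 genes, in 11 windows. Clcf1 had no promoter there and was not searched. The 250 bases before the start of each promoter were searched on both strands for the STAT motif TTCNNNGAA. For Socs3, Osmr and Lifr the windows lie wholly within the gene spans printed below, so starts further out were not searched. Of the 9 members searched, Socs3 was the only one with a match. It is shown because Socs3 is the member through which STAT3 output is usually read, and the match, in capitals, begins 154 bases before the start (GRCm38.p6, chr11:117969367-117969616, minus strand). Of all 32851 promoter windows of this length, 7.02% hold this motif. For Il6 the window is shown with a match to the κB motif of NF-κB in capitals (3 G, any 2 bases, 3 T and 2 C, searched on both strands). The match begins 44 bases before the start (GRCm38.p6, chr5:30012864-30013113, plus strand). This motif is held by 1.41% of all windows and was found in no other member searched. Such matches describe letters and show no binding.

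Socs3: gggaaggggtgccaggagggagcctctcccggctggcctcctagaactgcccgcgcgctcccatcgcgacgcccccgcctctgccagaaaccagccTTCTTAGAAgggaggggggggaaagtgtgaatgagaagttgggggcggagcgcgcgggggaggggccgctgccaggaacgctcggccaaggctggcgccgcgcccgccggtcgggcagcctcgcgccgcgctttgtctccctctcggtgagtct

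Il6: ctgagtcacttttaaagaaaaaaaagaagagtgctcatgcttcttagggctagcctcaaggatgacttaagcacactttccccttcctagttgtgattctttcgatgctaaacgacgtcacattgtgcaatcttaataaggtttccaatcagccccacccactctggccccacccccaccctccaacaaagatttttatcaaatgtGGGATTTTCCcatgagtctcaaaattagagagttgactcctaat

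The identity of the sorted cells was checked against marker lists. The 10 fibroblast markers, Pdpn and the collagens Col1a1 and Col1a2 among them, summed to between 35672 and 39981 CPM (counts scaled to the library total) in shControl and between 31003 and 34376 in shBrca2, without overlap. Of these markers 2 were called lower, the matrix proteoglycan genes Dcn (log2 fold change -0.77) and Lum (-1.18), and the other 8 were not called. The lists of cells that the gate should remove were far lower. The 5 of 8 epithelial markers in the table summed to between 16 and 41.3 CPM in shControl and between 51.1 and 85.2 in shBrca2, and the 7 of 12 immune markers to between 76.5 and 86.9 and between 125 and 133. The 6 of 7 endothelial markers lay between 37.2 and 55.2 in shControl and between 41.6 and 55.4 in shBrca2, with Pecam1, which encodes CD31, at 0 counts in 2 of the shBrca2 libraries. Pdpn itself, on which the cells were sorted, had 641 ± 36.6 normalized counts with the control hairpin (SD, n = 3) and 539 ± 57.3 with the Brca2 hairpin (SD, n = 4), and was not called. The 15 iCAF markers, which include Il6 and the STAT3 target Ccl2, summed to between 19601 and 28150 in shControl and to between 7953 and 14026 in shBrca2. C3 weighs most in these sums, with means of 44706 and 16804 normalized counts, the highest of the list in both groups. Of the 15, 12 (80%) were called lower, against 5.27% of all genes tested. This list was chosen with earlier results of these data known. Sums of the 7 pericyte markers were 203 to 351 against 380 to 518, those of the 7 myofibroblast markers 2067 to 2950 against 2170 to 3768. The 7 mesothelial markers ranged from 286 to 971 in shControl and from 790 to 1005 in shBrca2. Of the myofibroblast markers Acta2 alone was called, higher at a log2 fold change of 1.07 and without overlap. Also called higher were the epithelial Krt7 and Elf3, the immune Csf1r and C1qa, the pericyte Des and Notch3 and the mesothelial Krt19. Log2 fold changes were below 0 for 3 of 7 immune, 2 of 7 pericyte, 2 of 7 mesothelial and 0 of 5 epithelial markers. Csf1r weighs most in the immune sums, with means of 113 and 248 normalized counts, and Des in the pericyte sums, with 526 and 950. Elf3 and C1qa had at most 23 and 39 raw counts. The other markers of these lists were not called, nor was any endothelial marker. No list had a marker in the table that was at 0 in every library. The part of these shifts in the results that follow was not tested.

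Over the 10 genes, Clcf1 rose and Il6st and Socs3 fell in shBrca2 CAFs, while the other 7 did not pass the test. A gene was called at a DESeq2 adjusted p under 0.1, an absolute log2 ratio over 0.5 and a mean normalized count over 5. By this rule 9.04% of the 12768 genes tested were called, 3.77% higher and 5.27% lower. With 3 of 10 called the family was above that share, but the counts are small. The members too were chosen with earlier results of these data known. The median log2 ratio of the 10 genes was -0.26, against 0.01 over all genes tested. For 2 members, Clcf1 and Il6st, the groups did not overlap, 1 in each direction, which was true of 17.1% of all genes tested and, for lower values in shBrca2, of 9.3%. Values below are normalized counts, that is counts divided by the size factor of the library, log2 ratios are fold changes of shBrca2 over shControl with their standard error (SE), and FDR stands for the DESeq2 adjusted p. In bulk RNA of sorted cells, fewer cells with a transcript and less of it per cell cannot be told apart.

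**Figure D1:**
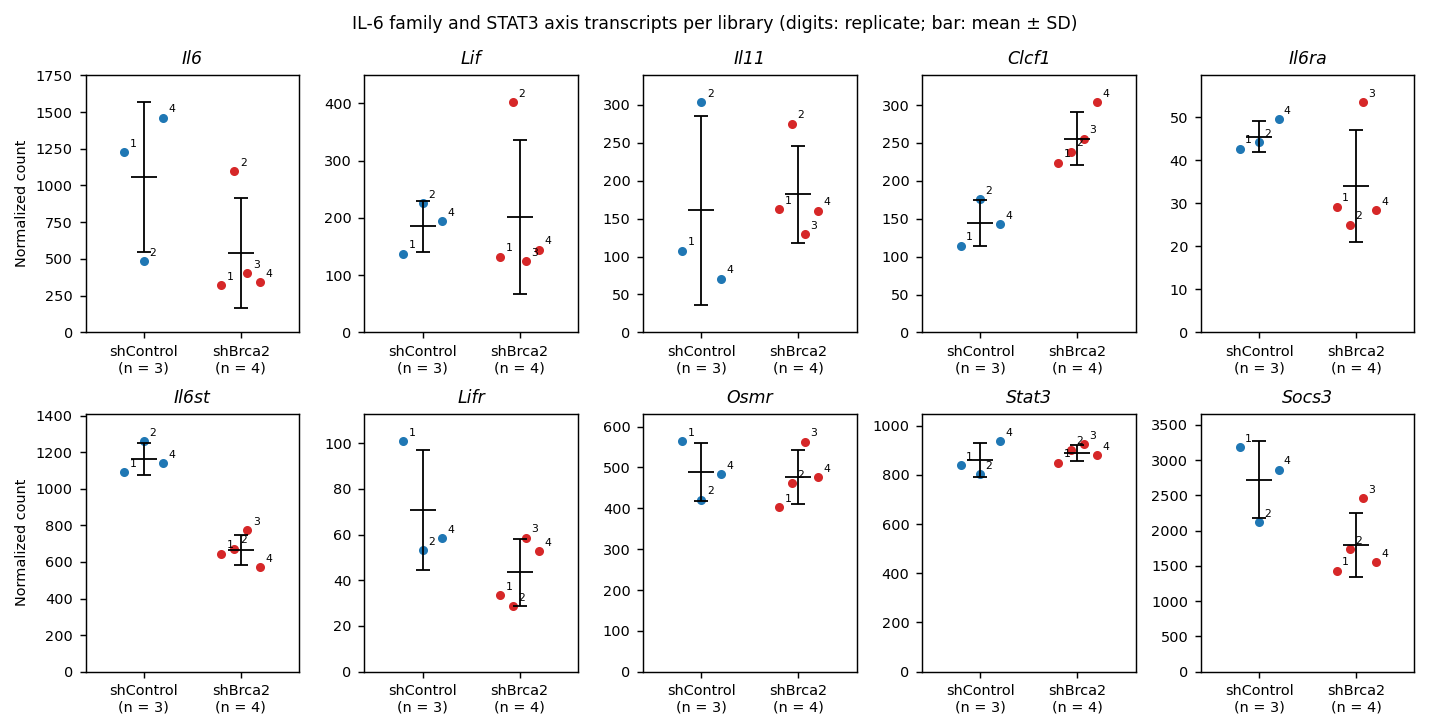
Normalized count (y axis, linear from 0) of each of the 10 transcripts in the 3 shControl libraries (blue) and the 4 shBrca2 libraries (red); digits give the replicate number and black bars the mean ± SD. Clcf1 and Il6st separate the groups, Stat3 and Osmr sit at one level, and Il6, Lif and Il11 are spread widely by single libraries such as shBrca2 replicate 2.

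Among the ligands, Clcf1 was the only one called. Clcf1 (GRCm38.p6, chromosome 19, 4214238 to 4223505) encodes cardiotrophin-like cytokine factor 1, a ligand of the CNTF receptor. It had 114, 176 and 143 normalized counts in the controls, against 224, 238, 256 and 304 in the shBrca2 libraries. Every shBrca2 library was above every control. The means were 144 ± 30.7 (SD, n = 3) and 255 ± 34.9 (SD, n = 4), a log2 ratio of 0.83 ± 0.21 (SE) at a DESeq2 FDR of 0.0035, or 1.78-fold. Clcf1 stayed called in all 13 alternative fits, with log2 ratios from 0.68 to 0.99 and FDR from 0.0011 to 0.097. In the current annotation 311 of its 3808 exon bases lie within another gene, Gm45928, on the same strand. Where these bases lie relative to the counted 3' end was not examined, so the share of its counts affected is not known.

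Il6 (chromosome 5, 30013114 to 30019975) was spread widely within both groups and was not called. It had 1227, 483 and 1460 normalized counts in the controls, against 319, 1098, 402 and 340 in the shBrca2 libraries. The libraries fell into high and low values in both groups: 2 of 3 controls and shBrca2 replicate 2 were high, and the other libraries were low. The log2 ratio was -0.97 ± 0.63 (SE), and the 95% interval ran from -2.21 to 0.27 (DESeq2 FDR 0.46), an interval that holds 0 as well as a loss beyond that of Il6st. Without shBrca2 replicate 2 the gene was called at a log2 ratio of -1.58 (DESeq2 FDR 4.0e-05). Over the alternatives the FDR ran from 4.0e-05 to 0.86.

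Lif (chromosome 11, 4257568 to 4272514) encodes leukemia inhibitory factor, the cytokine through which IL-1 is known to act on STAT3 in pancreatic fibroblasts. It had 138, 225 and 195 normalized counts in the controls, against 133, 402, 124 and 144 in the shBrca2 libraries. The groups overlapped, and shBrca2 replicate 2, which was also high for Il6, had the highest level of all 7 libraries. The log2 ratio came to 0.12 ± 0.39 (SE), with a 95% interval from -0.64 to 0.88 and a DESeq2 FDR of 0.93. Its direction rested on that library, since without it the log2 ratio was -0.47 (DESeq2 FDR 0.37), and without shControl replicate 1 it was -0.05. The FDR ran from 0.37 to 0.98 over the alternatives.

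Il11 (chromosome 7, 4772373 to 4782907) encodes IL-11, a cytokine known for its part in fibrosis. It had 108, 304 and 71 normalized counts in the controls, against 163, 275, 130 and 161 in the shBrca2 libraries. The highest and the lowest of all 7 libraries were both controls. Fitted, the log2 ratio was 0.19 ± 0.42 (SE), with a 95% interval from -0.63 to 1.01 and a DESeq2 FDR of 0.89. Without shControl replicate 2, the highest library, Il11 was called higher in shBrca2 CAFs at a log2 ratio of 1.03 (DESeq2 FDR 0.027, from 0.027 to 0.98 across alternatives). It was -0.08 without shBrca2 replicate 2, -0.04 without shControl replicate 1 and -0.16 without shControl replicate 4.

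**Figure D2:**
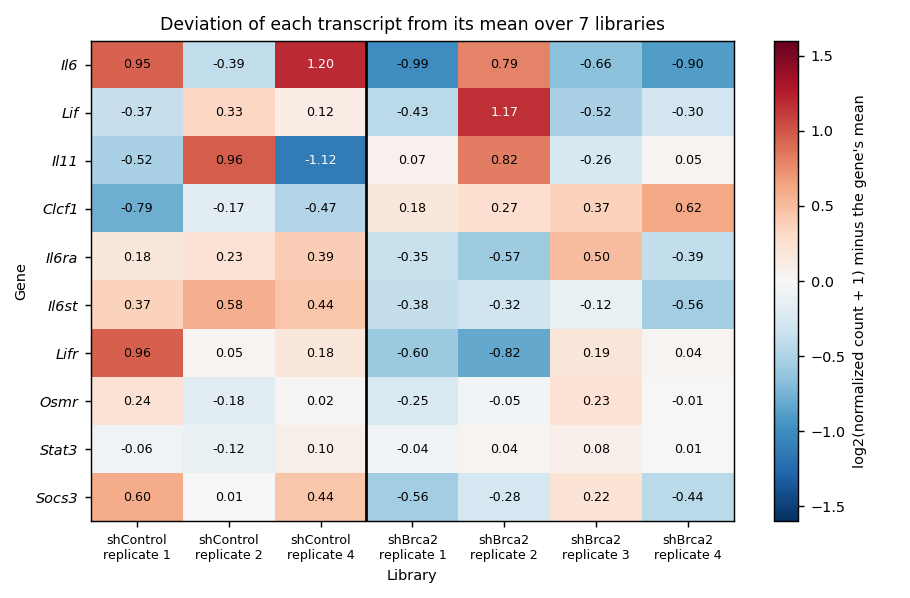
Heat map of log2(normalized count + 1) minus the gene's mean over the 7 libraries, with genes as rows and libraries as columns (red above, blue below the mean; the black line divides shControl from shBrca2). Il6 is high at 0.95 and 1.20 in shControl replicates 1 and 4 and at 0.79 in shBrca2 replicate 2, while Il11 is high at 0.96 and 0.82 in replicate 2 of each group.

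The mix of ligands within a library was described by raw counts for every 100 counts of Il6, a ratio that needs no size factor. Lif stood at 11.2 and 13.3 in shControl replicates 1 and 4, but at 46.6 in shControl replicate 2, and between 30.9 and 42.4 in the shBrca2 libraries. Il11 was likewise low in shControl replicates 1 and 4, at 8.77 and 4.86, against 62.8 in replicate 2 and 25.1 to 50.9 in shBrca2. Thus 2 controls had less Lif and Il11 for their Il6 than any shBrca2 library, while the remaining control had more than any. Clcf1 stood at 9.32, 36.4 and 9.79 in the controls and between 21.7 and 89.3 in shBrca2, where replicate 2 was lowest. These ratios were computed after the values of the ligands had been seen and carry no test.

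Among the receptor chains, Il6st, which all of these cytokines need, was clearly lower in shBrca2 CAFs. Il6st (chromosome 13, 112464070 to 112506860) had 1090, 1259 and 1140 normalized counts in the controls, against 645, 672, 772 and 571 in the shBrca2 libraries. The groups were well apart, and the spread within each was small. The means were 1163 ± 86.7 (SD, n = 3) and 665 ± 83.1 (SD, n = 4), a log2 ratio of -0.81 ± 0.155 (SE) at a DESeq2 FDR of 1.9e-05, which is 1.75-fold lower. It was called in all 13 alternative fits, with log2 ratios from -0.89 to -0.74 and FDR from 1.6e-05 to 0.011. An antisense transcript, 6720470G18Rik, shares 181 of its 15529 exon bases.

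The IL-6 receptor chain and the LIF receptor gave few counts and did not pass. Il6ra (chromosome 3, 89869324 to 89913196), the chain that binds IL-6, had between 28 and 51 raw counts per library. Normalized, these were 42.7, 44.3 and 49.6 in the controls against 29.3, 25.1, 53.5 and 28.5 in the shBrca2 libraries. In 3 of 4 shBrca2 libraries it lay below all controls, whereas replicate 3 was the highest of all, and the log2 ratio was -0.48 ± 0.32 (SE) at a DESeq2 FDR of 0.49. Without that library it was -0.73 (DESeq2 FDR 0.18), and over all 13 alternatives, in none of which it was called, it ran from -0.73 to -0.34 with FDR from 0.18 to 0.82. Lifr (chromosome 15, 7090610 to 7197489), the LIF receptor, had 101, 53.1 and 58.4 normalized counts in the controls versus 33.6, 28.6, 58.7 and 52.9 in shBrca2. Here shControl replicate 1 was highest and shBrca2 replicates 1 and 2 were lowest. The resulting log2 ratio was -0.75 ± 0.35 (SE) at a DESeq2 FDR of 0.21. It ranged from -0.40 without shControl replicate 1 to -0.92 without shControl replicate 2, and was not called in any fit. Its exons share 1530 of 13795 bases with an antisense transcript, Gm62219.

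Osmr (chromosome 15, 6813568 to 6874968), the oncostatin M receptor, did not separate the groups. It had 564, 421 and 483 normalized counts in the controls, against 403, 462, 563 and 477 in the shBrca2 libraries. The ranges coincided almost fully. This gave a log2 ratio of -0.05 ± 0.18 (SE), with a 95% interval from -0.40 to 0.31 and a DESeq2 FDR of 0.94.

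Stat3 (chromosome 11, 100886806 to 100939594) had the smallest standard error of the 10 transcripts. It had 840, 803 and 936 normalized counts in the controls, against 849, 903, 926 and 880 in the shBrca2 libraries. The groups overlapped, with a log2 ratio of 0.05, an SE of 0.13 and a 95% interval from -0.21 to 0.31 (DESeq2 FDR 0.92). Poly(A) counts do not measure phosphorylation, so this value says nothing of STAT3 activity.

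Socs3 (chromosome 11, 117966079 to 117970336), the feedback inhibitor whose promoter is printed above, was lower in shBrca2 CAFs. It had 3180, 2119 and 2861 normalized counts in the controls, against 1432, 1735, 2458 and 1555 in the shBrca2 libraries. The groups overlapped by 1 library on each side, as shBrca2 replicate 3 lay above shControl replicate 2. The means were 2720 ± 544 (SD, n = 3) and 1795 ± 459 (SD, n = 4), a log2 ratio of -0.60 ± 0.23 (SE) at a DESeq2 FDR of 0.082. The direction held in all 13 alternatives, but the call was lost in 6 of them. The FDR was 0.12 with edgeR, 0.33, 0.14 and 0.28 without shBrca2 replicates 1, 2 and 4, and 0.38 and 0.24 without shControl replicates 1 and 4, while over all alternatives it ran from 0.0031 to 0.38. Antisense transcripts share 261 and 160 of its 3560 exon bases.

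To place the 10 genes in their pathway, 74 further genes were listed by role, of which 67 were in the table. Of these, 3 were called higher and 12 lower, 22.4% in all against the 9.04% of all genes. Their median log2 ratio was -0.13. These lists were chosen with earlier results of these data known, so their shares are not independent of them. The remaining ligands were represented by 1 gene, Ctf1, which encodes cardiotrophin 1, another ligand of gp130. It had 14.5, 16.4 and 24.3 normalized counts in the controls versus 33.6, 41.4, 31.1 and 33.5 in shBrca2. The groups did not overlap (log2 ratio 0.94 ± 0.35 SE, DESeq2 FDR 0.083), but raw counts were between 13 and 71, and the call was lost when any 1 library was left out, with FDR from 0.104 to 0.449 in those fits and from 0.065 to 0.48 over all alternatives. Ctf1 shares 639 of its 2429 exon bases with Ctf2 on the opposite strand. Osm, Cntf, Il27, Ebi3 and Il31 were not analysed here.

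Of the 5 further receptor and shedding genes, 2 (40%) were called, both lower, against 5.27% of all genes called lower, but the list is small. Il11ra1 (chromosome 4, 41760443 to 41769473), the chain that binds IL-11, had 2139, 2067 and 1522 normalized counts in the controls, against 718, 1112, 893 and 747 in the shBrca2 libraries. All shBrca2 libraries were below all controls. The log2 ratio came to -1.14 ± 0.21 (SE) at a DESeq2 FDR of 5.2e-06, or 2.20-fold lower. Reads from near-identical copies of this gene in the mouse genome could be split or lost in counting, so its level is uncertain. Il27ra (chromosome 8, 84030286 to 84042600), the receptor that pairs with gp130 for IL-27, fell from 69.1 ± 11.8 (SD, n = 3) to 25.7 ± 9.53 (SD, n = 4) normalized counts, with a log2 ratio of -1.47 (DESeq2 FDR 2.7e-04) and no overlap. Il11ra1 and Il27ra were called in all 13 alternatives.

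Cntfr, the receptor chain that CLCF1 binds, was singled out after the values were seen. It stood at 83.5 ± 33.9 with the control hairpin (SD, n = 3) and at 88.2 ± 30.5 with the Brca2 hairpin (SD, n = 4), which did not pass (log2 ratio 0.10, DESeq2 FDR 0.93). The sheddases Adam10 and Adam17, which can release receptor ectodomains, were not called.

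No gene of the 8 further Janus kinase and STAT genes was called by DESeq2 or by edgeR, while 3 had an unadjusted DESeq2 p under 0.05. Jak1, the main kinase on gp130, had the smallest p of them and missed the fold threshold only. It had 796, 564 and 784 normalized counts in the controls, against 551, 555, 492 and 457 in the shBrca2 libraries, so that the groups did not overlap by a narrow margin. Fitted, the log2 ratio was -0.48 ± 0.18 (SE) at a DESeq2 FDR of 0.081. Without shControl replicate 2 it was -0.62 and was called (DESeq2 FDR 0.008, with a range of 0.008 to 0.53). Jak2 differed in the other direction, with no overlap and a log2 ratio of 0.38 (DESeq2 FDR 0.18), and Tyk2 had -0.32 (0.61). Stat5b had a log2 ratio of -0.53 and did not pass (DESeq2 FDR 0.13), and of the 13 alternatives was called only without shBrca2 replicate 3 (DESeq2 FDR 0.051, with a range of 0.051 to 0.49).

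Of the 14 brakes in the table besides Socs3, which comprise the SOCS, PIAS and phosphatase genes, 1 (7.14%) was called. This share was below the 9.04% of all genes tested. Socs1, a feedback inhibitor that binds Janus kinases and is best known as a target of interferon signaling, had 429, 362 and 525 normalized counts in the controls, against 122, 237, 223 and 165 in the shBrca2 libraries. Each control was above each shBrca2 library. The resulting log2 ratio was -1.24 ± 0.25 (SE) at a DESeq2 FDR of 6.9e-05, or 2.35-fold lower, and it was called in all 13 alternatives. The log2 ratios of the list had a median of 0.01, with 7 genes above 0 and 7 below.

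**Figure D3:**
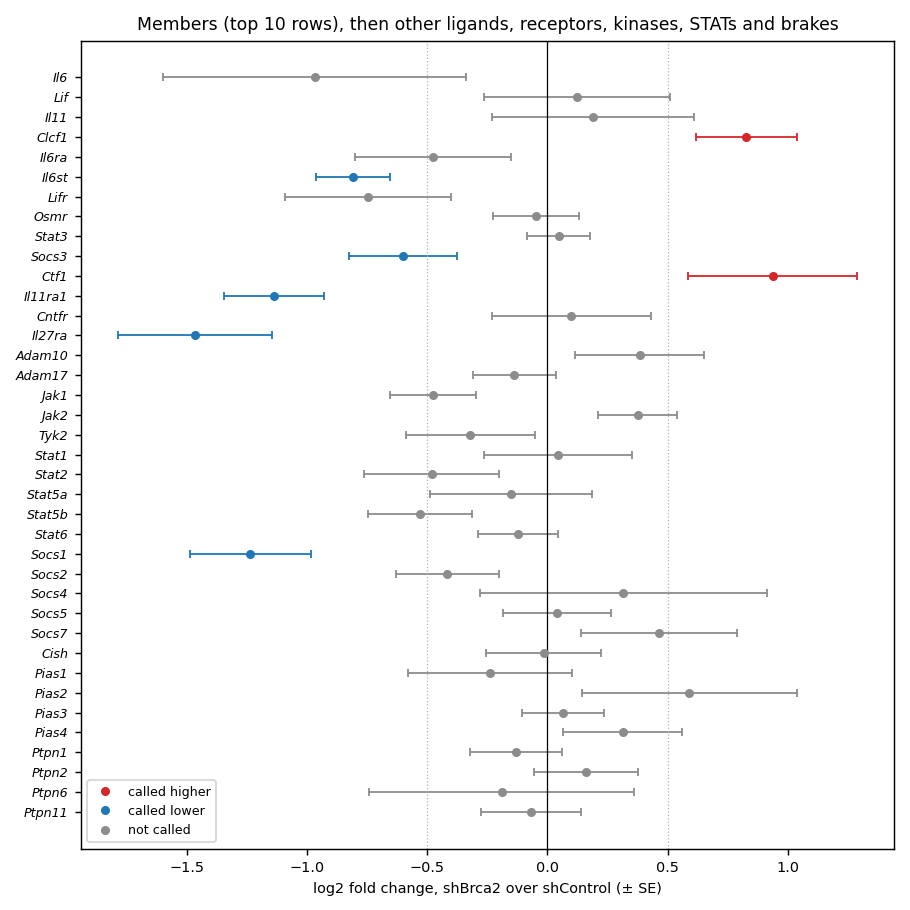
Log2 fold change (x axis, shBrca2 over shControl, bars ± SE) of the 10 members and, below them, of the other ligands, receptors, kinases, STATs and brakes in the table; red marks genes called higher, blue called lower, grey not called, and dotted lines the fold threshold of 0.5. Called decreases are the receptors Il6st, Il11ra1 and Il27ra and the SOCS genes Socs1 and Socs3, and called increases are the ligands Clcf1 and Ctf1. The other receptors, SOCS genes and ligands shown were not called. Ctf1 lost its call in 8 and Socs3 in 6 of the 13 alternative fits.

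Genes known as STAT3 targets were examined next. Of the 25 listed, 9 were called lower and 1 higher, and 18 had a log2 ratio below 0. The share called lower was 36%, against 5.27% of all genes, and the median log2 ratio was -0.34 against 0.01. This list was also chosen with earlier results of these data known, so the share is not independent of them. Many of these genes also answer to NF-κB, C/EBP or hypoxia signals, so the list does not measure STAT3 activity. 2 acute-phase genes led it by p. Lbp, which encodes the lipopolysaccharide binding protein, had 3755, 2998 and 3544 normalized counts in the controls versus 1298, 1870, 1406 and 1247 in shBrca2, with no overlap and a log2 ratio of -1.24 (SE 0.19, DESeq2 FDR 1.3e-08). Lrg1, a leucine-rich secreted glycoprotein, fell from 282 ± 30.3 (SD, n = 3) to 122 ± 28.7 (SD, n = 4) normalized counts, again without overlap (log2 ratio -1.19, DESeq2 FDR 1.2e-05). Both were called in all 13 alternatives.

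The other decreases were less firm. Myc, the proto-oncogene, had 1672, 557 and 1923 normalized counts in the controls versus 280, 602, 589 and 312 in shBrca2, so that shControl replicate 2 lay among the shBrca2 libraries (log2 ratio -1.64, DESeq2 FDR 0.04). Hp, which encodes haptoglobin, had 5724, 4430 and 5945 in the controls and 2152, 5021, 2247 and 1777 in shBrca2, where replicate 2 alone was at the level of the controls (log2 ratio -0.94, DESeq2 FDR 0.044). The adhesion molecule gene Icam1 (-0.76), the survival gene Mcl1 (-0.61), the NF-κB cofactor gene Bcl3 (-0.52) and the transcription factor genes Cebpd (-1.31) and Batf (-1.96) had DESeq2 FDR from 0.034 to 0.095. Batf and Cebpd rested on few reads, from 3 to 22 and from 12 to 50 per library.

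The number called lower depended on single mice. It was 4 without shBrca2 replicate 1, 3 without shControl replicate 4, and 2, Lbp and Lrg1, without either shBrca2 replicate 4 or shControl replicate 1. Vegfa, which encodes a hypoxia-induced angiogenic factor, was the only target called higher. It had 555, 878 and 666 normalized counts in the controls versus 1199, 1525, 1411 and 1047 in shBrca2 (log2 ratio 0.89, DESeq2 FDR 0.0013), and was called in all alternatives. Saa3, an acute-phase gene, was not called at a log2 ratio of 0.45 (DESeq2 FDR 0.43). It was called higher, at 0.94, without shControl replicate 2 (DESeq2 FDR 2.3e-04, with a range of 2.3e-04 to 0.86).

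**Figure D4:**
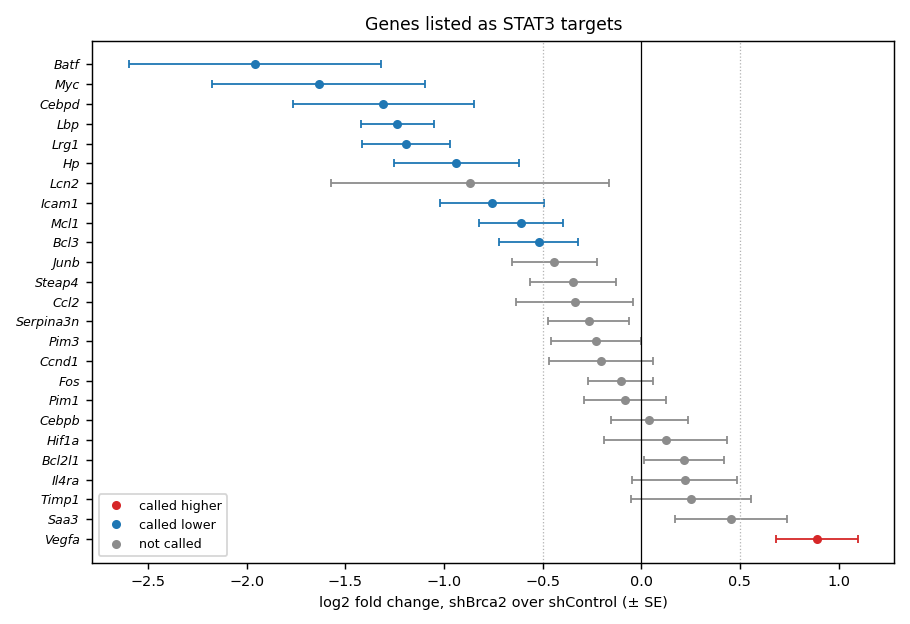
Log2 fold change (x axis, shBrca2 over shControl, bars ± SE) of the 25 genes listed as STAT3 targets, sorted by value, with blue for called lower, red for called higher and grey for not called. The 9 called decreases run from Batf at -1.96 to Bcl3 at -0.52, and Vegfa at 0.89 is the single called increase.

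Il6 is induced mainly through IL-1 or TNF receptors and NF-κB, and 14 genes of that route were in the table. Of these, 1 (7.14%) was called, a share below the 9.04% of all genes tested. Il1rap, the accessory chain of the IL-1 receptor, rose from 14.6 ± 2.74 (SD, n = 3) to 33.6 ± 11.3 (SD, n = 4) normalized counts, with a log2 ratio of 1.24 (DESeq2 FDR 0.034) and raw counts between 11 and 76. It was not called without shControl replicates 1 or 4 or shBrca2 replicates 1 or 2, with FDR from 0.014 to 0.22 over the alternatives. A pair of receptor genes passed the FDR but not the fold threshold, with no overlap between groups. Il1r1, the IL-1 receptor, had a log2 ratio of 0.38 (DESeq2 FDR 0.095), and Tnfrsf1a, a TNF receptor, one of -0.43 (DESeq2 FDR 0.032). Tnfrsf1a was called without shControl replicate 1, at -0.50. None of the NF-κB subunit genes Nfkb1, Nfkb2, Rela and Relb was called, nor was Zc3h12a, whose product degrades Il6 mRNA.

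The genes whose levels followed Il6 most closely over the 7 libraries were then named. Likeness was the root mean square difference of log2(normalized count + 1), each gene centred on its mean, over the 6726 other genes with a mean normalized count over 50. The 5 nearest were Tnfaip6, which encodes a hyaluronan-binding protein, at 0.26, Has1, a hyaluronan synthase and one of the listed iCAF markers, at 0.28, and Gstt1, Calml4 and Cpq at 0.31 each. Il6 itself deviated from its own mean by 0.87 on the same measure. Tnfaip6 shared with Il6 the high shBrca2 replicate 2, with 2539, 1319 and 2939 normalized counts in the controls versus 1014, 2742, 1352 and 978 in shBrca2. For Socs3 the nearest were Ppp1r15a at 0.09, which encodes a phosphatase subunit of the stress response, and Trafd1 (0.09), Pink1 (0.10), Timp2 (0.10) and Lrpap1 (0.11), against 0.41 for Socs3 from its own mean. These are descriptions over 7 libraries that share the same group difference.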

How the data were processed

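The authors deposited raw counts in 1 table, with a gene symbol in each row and a column for each of 7 libraries (3 shControl, 4 shBrca2), and the counts were not normalized. The submitters' processing notes name bcl2fastq, cutadapt, STAR 2.4.2a, HTSeq, DESeq2 and the build mm10. The annotation, the strand setting and whether molecular barcodes were collapsed are not given in the sources used here, so PCR copies may be included. Groups and replicate numbers were taken from the sample titles.

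The test named in the study's methods was applied to all 12771 genes. Models with and without the group were compared by likelihood ratio in DESeq2 1.42.0 (R 4.3.3), with its own size factors and no covariate, and genes were called at an adjusted p (Benjamini-Hochberg over all genes) under 0.1, an absolute log2 fold change over 0.5 and a mean normalized count over 5. 3 genes received no p. Intervals are 95% Wald intervals. Of 13 alternatives, 7 left out a library, and the others were edgeR 4.0.16 (quasi-likelihood, TMM), a Wald test, TMM library sizes, a filter of 10 counts in 3 libraries, no independent filtering or Cook's distance, and the replicate number as a block. The Wald test called 482 genes higher and 666 lower, the counts that the paper reports, against 481 and 673 in the main fit. The code was tested on simulated data. Every pair of libraries differed by more than counting noise (lowest mean chi-square per gene 3.01).

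The members and lists were chosen with earlier results of these data known, and their counts are not independent of them. Named were all members, the called genes of each pathway list, or the gene with the smallest p where none was called, and the 5 genes nearest to Il6 and Socs3. Of the sort markers, Pdpn and Pecam1 were in the table, whereas Epcam and Ptprc were not analysed here, and 1 gene of the receptor list is not reported here. Cntfr, Jak2, Tyk2, Stat5b, Il1r1, Tnfrsf1a, Saa3 and the NF-κB motif were added after values had been seen. Promoters and gene positions are RefSeq's on GRCm38.p6, the assembly of mm10, matched by symbol. Shared exon bases were counted in GENCODE vM39 on GRCm39.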

Additional observations from a re-analysis of the deposited data

Results flagged for a closer look

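In the 4 shBrca2 libraries, 34 genes were examined for a library that stood apart from the other 3 (gap to the nearest over the range, above Dixon's 95% limit), and 4 were found. That limit gives about 1 in 20 by chance for independent, normally distributed values. Il6, Lif and Hp stood apart in the same library, and some genes were chosen after values had been seen. No excess over chance can therefore be read from this count. Il6 in shBrca2 replicate 2 was at 1098 normalized counts, against 402 in the next library. Lif in the same library was at 402 against 144, and Hp at 5021 against 2247. Il6ra stood apart in shBrca2 replicate 3, at 53.5 against 29.3.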

How the results depend on the processing

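Clcf1, Il6st, Il11ra1, Il27ra, Socs1, Lbp, Lrg1 and Vegfa kept their direction and their call in all 13 alternatives. With edgeR, Socs3 was not called (log2 fold change -0.61) and 1 member was called lower in place of 2. The deviations of same-numbered libraries from their group means correlated at -0.13, -0.17 and -0.18 over 6735 genes. Pairs of unlike number ran from -0.21 to 0.29. Deviations centred in groups of 3 and 4 libraries cannot decide whether the replicate numbers mark a pairing or a shared batch. With the replicate block 211 genes were called higher and 280 lower, in place of 481 and 673, and in the pathway lists 5 STAT3 targets lower, 0 other ligands higher and 0 genes upstream of Il6 higher, while all 3 called members stayed called. When each library was left out in turn, 261 to 610 genes were called higher and 354 to 695 lower, 1 to 2 members higher and 1 to 2 lower. The lists then gave 2 to 9 STAT3 targets lower and 1 to 3 higher, 0 to 1 genes upstream of Il6 higher and 0 to 1 lower, 1 to 2 brakes lower, 0 to 2 kinases and STATs lower, and 0 other ligands higher in each fit. In those fits the log2 fold change ran from -1.58 to -0.67 for Il6, -0.47 to 0.29 for Lif, -0.16 to 1.03 for Il11, -0.14 to 0.066 for Osmr, -0.79 to -0.48 for Socs3, and -0.14 to 0.46 for Cntfr. The cause of these changes was not tested. Few counts per library limit Il6ra, Lifr, Ctf1, Il1rap, Cebpd and Batf.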
